A study of Mus musculus with 12 samples.

Results

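Acadl, Acaa2 and Acat1 are 3 of the 736 rows of a metabolic nCounter panel and were taken by name. All 3 encode mitochondrial enzymes of fatty acid oxidation or ketone body metabolism. The nCounter method tags single RNA molecules with coloured barcodes and counts them, and was run here on total RNA from 12 C57BL6-NJ mice, all male. The mice formed 4 groups of 3: constitutive SphK2 KO mice on Western diet and sugar water, constitutive SphK2 KO mice on control diet and normal water, wild-type mice on Western diet and sugar water, and wild-type mice on control diet and normal water. The series is titled as a model of early MASH, a fatty liver disease with inflammation, and asks how diet and genotype alter expression. SphK2 is a kinase that makes sphingosine-1-phosphate. The table has no row of that name, so the genotypes are those of the labels. The knockout is constitutive, so it is not limited to 1 cell type. Mice started their diets at 12 to 18 weeks of age and stayed on them for 16 weeks per the growth protocol, whereas the labels of single mice give 16 to 27 weeks. The labelled ages were 221, 217 and 252 days for knockouts on Western diet and 250 to 259 days for knockouts on control diet. They were 226 to 232 days for wild-type mice on Western diet and 231 to 232 days for those on control diet. Age thus differed with diet mainly in knockouts, and on control diet every knockout was older than every wild-type mouse.

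In mitochondrial beta-oxidation, fatty acids bound to coenzyme A are shortened in repeated cycles that each release acetyl-CoA. Acadl is the long-chain acyl-CoA dehydrogenase, which opens the cycle on long chains. Acaa2 is a thiolase that closes the cycle by cleaving off acetyl-CoA. Acat1 is the mitochondrial acetyl-CoA acetyltransferase, a thiolase that joins acetyl-CoA units into acetoacetyl-CoA and also runs in reverse. It acts at the entry to ketone body synthesis, in ketone body use and in isoleucine breakdown. The liver is the main site of ketone body synthesis, and many genes of fatty acid oxidation there respond to the nuclear receptor PPARα.

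No promoter of Acat1 was available. The promoter of Acadl is shown because, with all 12 libraries fitted and weighted equally, Acadl had the smallest p of the 3 genes for diet in wild-type mice, for the difference of diet effects and for genotype on Western diet. In RefSeq's GRCm38.p6 it lies on the minus strand at chr1:66863260-66863559, from 250 bases before to 50 bases after the gene's start, and is printed 5′ to 3′ along the gene.
Acadl: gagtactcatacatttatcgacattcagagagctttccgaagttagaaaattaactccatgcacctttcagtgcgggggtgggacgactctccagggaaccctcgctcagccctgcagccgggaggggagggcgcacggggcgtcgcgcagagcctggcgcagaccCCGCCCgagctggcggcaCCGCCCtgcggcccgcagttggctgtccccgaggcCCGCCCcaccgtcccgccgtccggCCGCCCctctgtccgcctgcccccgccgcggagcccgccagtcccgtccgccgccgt
Capitals mark the 4 matches to the GC box GGGCGG, all on the opposite strand, starting 84, 66, 31 and 7 bases before the gene's start. The search covered both strands, and 35.7% of 32851 promoters of this length hold at least 1 match. The window is 70.3% G and C, against a median of 52.7% over all promoters. It holds no match to AGGTCA, which 16.3% of promoters hold, nor to AGGTCANAGGTCA, which contains AGGTCA and is held by 0.0396%, nor to TATAAA, held by 13.6%.

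The labels name no tissue. Of 12 hepatocyte marker genes 10 are in the table. The 8 among the rows from A2m to Cat averaged 13295 (Arg1) to 89078 (Apoa2) and were above 21, the lowest value listed, in every library. Rows named Cps1 and Ttr, hepatocyte markers placed after Cat, stood at 21 in 12 and in 7 libraries, so names after Cat may not fit their values. All 3 members lie among the 111 rows from A2m to Cat. The summed signal of the 8 hepatocyte markers was 324617 to 413004 in Western-diet knockout, 335504 to 386113 in control-diet knockout, 377235 to 433336 in Western-diet wild-type and 378386 to 416454 in control-diet wild-type libraries. No marker fixed for another cell type lies among the rows from A2m to Cat. In total RNA, fewer cells of a type and less RNA per cell cannot be told apart. The lowest total count recovered from the values, 1138914, was that of replicate 3 of Western-diet wild-type mice, against 1702816 to 1924846 elsewhere. That library also had the most rows at 21 (185, against 77 to 131). On the first principal component of the other rows, with 66.2% of the variance, knockout libraries scored 5.72 to 10.1 and wild-type libraries -7.99 to -3.95, with 3 exceptions. Replicates 2 of Western-diet knockout and of control-diet wild-type mice lay between these ranges, and replicate 2 of control-diet knockout mice (-4.92) lay within the wild-type range.

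**Figure D1:**
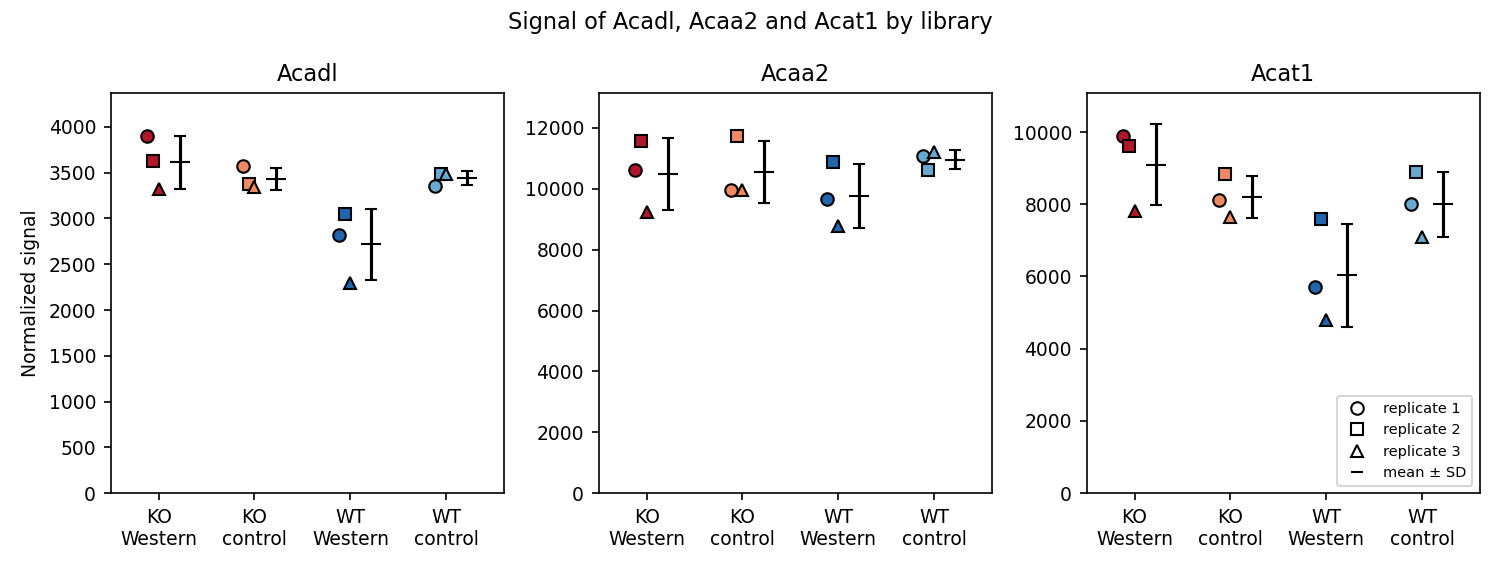
Normalized signal of Acadl, Acaa2 and Acat1 (vertical axes, from 0) in each of the 12 libraries, grouped by genotype and diet, with the mean ± SD of each group of 3 as a bar. Western-diet wild-type mice had the lowest mean of the 4 groups for each gene, and their replicate 3 the lowest value of all.

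The effect of Western diet was taken first within wild-type mice. All 3 genes had lower means on Western diet, by 0.17 to 0.43 on the log2 scale, and none passed the test over all rows. Acadl was 2823, 3045 and 2292 in Western-diet wild-type mice, against 3349, 3486 and 3487 in control-diet wild-type mice. Every Western-diet value was thus below every control-diet value. The means were 2720 ± 387 on Western and 3441 ± 79.2 on control diet (SD, n = 3 each). The log2 fold change was -0.35 ± 0.10 (SE), with a 95% interval of -0.57 to -0.12 and an adjusted p of 0.563 by limma with Benjamini-Hochberg adjustment over 736 rows. Errors of fold changes below are limma's standard errors, and adjusted p-values are from the same fit.

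Acat1 was 5712, 7595 and 4805 in Western-diet wild-type mice, against 8021, 8885 and 7094 in control-diet wild-type mice. Western-diet replicate 2 lay above control-diet replicate 3, so these groups overlapped. The means were 6037 ± 1423 on Western and 8000 ± 896 on control diet, and the log2 fold change was -0.43 ± 0.17 (95% interval -0.81 to -0.044, adjusted p = 0.712). Acaa2 was 9673, 10867 and 8776 in Western-diet wild-type mice, against 11059, 10610 and 11203 in control-diet wild-type mice. Here too Western-diet replicate 2 lay inside the control-diet range. The log2 fold change of Acaa2 was -0.17 ± 0.11 (95% interval -0.41 to 0.069, adjusted p = 0.842).

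Over all rows, 0% passed for diet in wild-type mice (0 of 736 by limma), 3.67% were lower at an unadjusted p under 0.05 (27 rows), and 6.66% were lower with no overlap between the groups (49 rows). Among the members, Acadl and Acat1 had an unadjusted p under 0.05 (0.00666 and 0.0328, ranks 8 and 33 of 736), and Acadl alone did not overlap. The median log2 fold change over all rows was -0.010. Western-diet wild-type replicate 3, the library with the lowest total count, had the lowest value of all 3 genes. Without it the log2 fold changes were -0.23 for Acadl, -0.27 for Acat1 and -0.096 for Acaa2, and none passed. The part of that library's depth in these differences was not tested beyond this omission. At least 1524 counts, a counting error of 2.56%, stood behind each value of a member, well under the group SDs of Western-diet mice.

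In knockout mice the same diets gave no lower means of Acadl and Acat1. Acadl was 3897, 3631 and 3318 in Western-diet knockout mice, against 3572, 3379 and 3344 in control-diet knockout mice. Western-diet replicates 1 and 2 were above all control-diet values and replicate 3 was below them all. Acadl averaged 3616 ± 290 on Western and 3432 ± 123 on control diet (SD, n = 3 each). Its log2 fold change was 0.073 ± 0.099, with a 95% interval of -0.15 to 0.30.

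Acat1 in knockout mice was 9881, 9618 and 7801 on Western diet, against 8109, 8827 and 7656 on control diet. The groups overlapped through Western-diet replicate 3, and the log2 fold change was 0.15 ± 0.17 (95% interval -0.24 to 0.53). Acaa2 was 10625, 11574 and 9231 on Western diet, against 9951, 11722 and 9959 on control diet, and its log2 fold change was -0.011 ± 0.11 (95% interval -0.25 to 0.23). Each member had an adjusted p of 1 by limma, and in each gene the groups overlapped. Over all rows 0% passed in this comparison (0 of 736), 2.31% had an unadjusted p under 0.05 (17 rows) and 5.98% did not overlap (44 rows). With age as a covariate the log2 fold changes were -0.069 for Acadl, -0.12 for Acat1 and -0.23 for Acaa2, and none passed. Western-diet knockout replicate 3, the oldest of its group by the labels (252 days), had the lowest value of its group for all 3 genes.

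The difference between these diet effects, knockout minus wild type, was tested as an interaction. It was 0.42 ± 0.14 on the log2 scale for Acadl (95% interval 0.10 to 0.74), 0.57 ± 0.24 for Acat1 (0.031 to 1.11) and 0.16 ± 0.15 for Acaa2 (-0.18 to 0.50). None passed limma's test over 736 rows (adjusted p = 0.549, 0.789 and 1). Over all rows 0% passed (0 of 736), and 2.99% had a positive difference at an unadjusted p under 0.05 (22 rows), among them Acadl (0.0149) and Acat1 (0.0405). With age as a covariate the differences were 0.30 for Acadl and 0.34 for Acat1, neither of which passed (limma, adjusted p = 0.863 each), and that of Acaa2 turned to -0.026. So the lower means of Acadl and Acat1 in wild-type mice are not shown to be limited to that genotype. Both genes passed with libraries weighted by their spread (adjusted p = 0.0449 each), a weighting that did not converge. They were among 19 of 736 rows that passed with it. With weights taken from the 538 rows above 21 in every library, an alternative chosen after seeing the data, both genes passed as well (adjusted p = 0.0363 each). In all, 21 of 736 rows passed with these. Those weights ran from 0.187 in control-diet knockout replicate 2 to 8.79 in Western-diet knockout replicate 1.

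**Figure D2:**
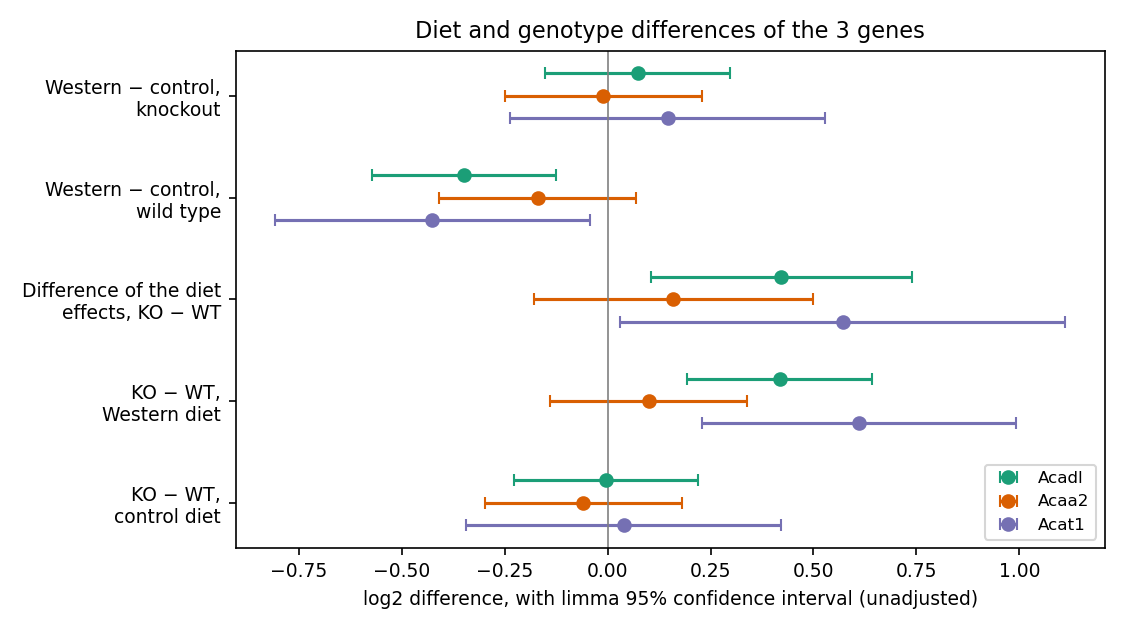
Log2 differences of Acadl, Acaa2 and Acat1 (horizontal axis) with limma's unadjusted 95% confidence intervals, for diet in each genotype, the difference of the diet effects, and genotype on each diet. The intervals of Acadl and Acat1 lie off 0 for diet in wild-type mice, for the difference of diet effects and for genotype on Western diet, while all 3 genes' intervals span 0 for diet in knockout mice and for genotype on control diet.

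The same values were set by genotype. On Western diet, the 3 knockout mice had more Acadl than any of the 3 wild-type mice (at least 3318 against at most 3045). They also had more Acat1 (at least 7801 against at most 7595). The log2 fold changes were 0.42 ± 0.10 for Acadl (95% interval 0.19 to 0.64) and 0.61 ± 0.17 for Acat1 (0.23 to 0.99). Neither passed over 736 rows (limma, adjusted p = 0.0861 and 0.113). Acaa2 overlapped, with 9231 to 11574 in the knockouts and 8776 to 10867 in wild type, with a log2 fold change of 0.10 ± 0.11.

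In this comparison 0.136% of rows passed (1 of 736, not a member), 14.5% were higher in knockout mice with no overlap (107 rows), and 12.4% were higher at an unadjusted p under 0.05 (91 rows). Library medians were 0.16 (log2) higher in Western-diet knockout than in wild-type libraries. Relative to them the differences were 0.25 for Acadl and 0.45 for Acat1, and that of Acaa2 turned to -0.063. Acadl passed when only the 111 rows from A2m to Cat were fitted (adjusted p = 0.0462), as 1 of 8 that did. Without Western-diet wild-type replicate 2, Acadl (0.50, adjusted p = 0.0447) and Acat1 (0.79, adjusted p = 0.0388) were among 15 of 736 rows that passed. Both also passed with either set of library weights (adjusted p = 0.00111 and 0.000583 each). With these weights 326 and 344 of all 736 rows passed, so a pass there does not set the members apart. Without Western-diet wild-type replicate 3 the differences were 0.30 and 0.46 and did not pass.

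On control diet the genotypes lay close, though the knockouts were older by the labels (250 to 259 against 231 to 232 days). Acadl was 3344 to 3572 in the knockouts and 3349 to 3487 in wild type, a log2 fold change of -0.0041 ± 0.099 (95% interval -0.23 to 0.22). Acat1 was 7656 to 8827 in the knockouts and 7094 to 8885 in wild type (0.039 ± 0.17, interval -0.34 to 0.42). Acaa2 was 9951 to 11722 in the knockouts and 10610 to 11203 in wild type (-0.059 ± 0.11, interval -0.30 to 0.18). All overlapped and none passed (limma, adjusted p = 0.846 to 1). Over all rows 0% passed (0 of 736), 4.76% had an unadjusted p under 0.05 (35 rows) and 6.66% did not overlap (49 rows). With age as a covariate the log2 fold changes were 0.13 for Acadl, 0.29 for Acat1 and 0.14 for Acaa2, and none passed. Age and genotype cannot be fully told apart in this comparison.

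By mean level, the groups of Acadl and Acat1 both had Western-diet knockout mice highest and Western-diet wild-type mice lowest, with the control-diet groups between. For Acaa2 the order was control-diet wild-type (10957 ± 310), control-diet knockout (10544 ± 1020), Western-diet knockout (10476 ± 1179) and Western-diet wild-type mice (9772 ± 1049), and neighbours in it overlapped. Acaa2 had the smallest spread over all 12 libraries, with a coefficient of variation of 8.87%, against 12.7% for Acadl and 18.8% for Acat1. The highest library held 1.34 times the lowest for Acaa2, 1.70 times for Acadl and 2.06 times for Acat1.

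**Figure D3:**
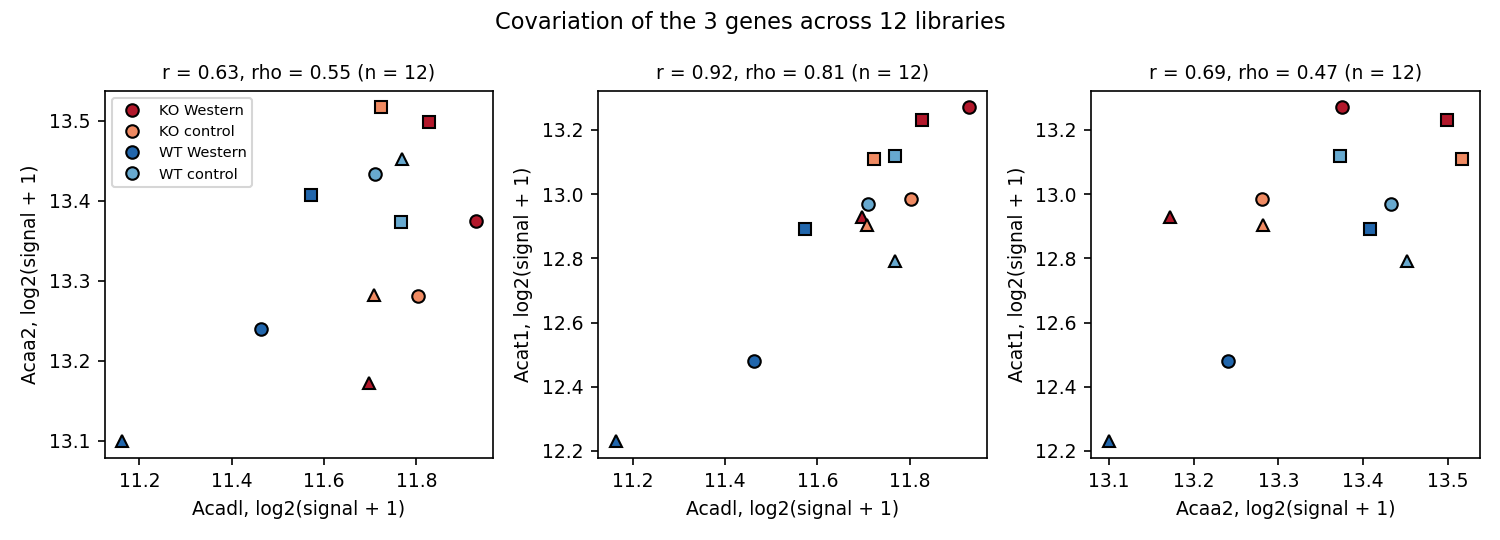
Log2(signal + 1) of each pair of the 3 genes in the 12 libraries, coloured by group, with circles for replicate 1, squares for replicate 2 and triangles for replicate 3. Acadl and Acat1 line up most closely (r = 0.92), and Western-diet wild-type replicate 3 lies at the lower left of each panel.

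Across the 12 libraries Acadl and Acat1 varied together most closely of the 3 pairs. Their Pearson r was 0.92 (permutation p = 0.00014, adjusted 0.00042 over 3 pairs) and their Spearman rho 0.81 (permutation p = 0.00215, adjusted 0.00645). All tests of correlation were two-sided. Without the 2 libraries farthest from the median of Acadl, Western-diet wild-type replicates 3 and 1, r was 0.67 (n = 10, permutation p = 0.0289). For deviations from the 4 group means, which take the group differences off, r was 0.80 (exact permutation within groups, p = 0.0648, adjusted 0.0972), which did not pass.

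The pairs with Acaa2 were looser. Acadl and Acaa2 had r = 0.63 (permutation p = 0.0226, adjusted 0.0226) and rho = 0.55 (permutation p = 0.0698, adjusted 0.105). The relation rested on the same 2 libraries, without which r was 0.095 (n = 10, permutation p = 0.798). Acaa2 and Acat1 had r = 0.69 (permutation p = 0.0118, adjusted 0.0177) and rho = 0.47 (permutation p = 0.13, adjusted 0.13). Without Western-diet wild-type replicate 3 and Western-diet knockout replicate 3, the farthest from the median of Acaa2, r was 0.54 (n = 10, permutation p = 0.106). For deviations from group means r was 0.62 for Acadl with Acaa2 (exact permutation p = 0.151, adjusted 0.151) and 0.74 for Acaa2 with Acat1 (exact permutation p = 0.0309, adjusted 0.0926).

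Leaving out Western-diet wild-type replicate 3 alone gave r = 0.84 for Acadl with Acat1 (permutation p adjusted 0.00561), 0.33 for Acadl with Acaa2 (adjusted 0.328) and 0.47 for Acaa2 with Acat1 (adjusted 0.216). As a background, the median r over all 144453 pairs of the 538 rows above 21 in every library was 0.031. Of these pairs, 0.60% had an r at least as high as Acadl with Acat1, 9.23% at least that of Acaa2 with Acat1, and 12.0% at least that of Acadl with Acaa2. Rows share the library's scaling factor and vary together, so these shares are descriptions. The recovered total count went with each of the 3 genes through 1 library. For Acadl r was 0.73 over 12 libraries (permutation p = 0.0725, rho = -0.13 with permutation p = 0.699, 9 such relations computed, adjusted p = 0.174 for r). Without Western-diet wild-type replicate 3 it was -0.39. For Acat1 r was 0.61 over 12 libraries and -0.49 without that replicate, and for Acaa2 0.52 and -0.26 (permutation p adjusted 0.174 each over 12 libraries).

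Ratios within a library do not depend on its scaling factor. The log2 ratio of Acaa2 to Acat1 was 0.20 ± 0.088 in Western-diet knockout, 0.36 ± 0.059 in control-diet knockout, 0.72 ± 0.18 in Western-diet wild-type and 0.46 ± 0.20 in control-diet wild-type mice (SD, n = 3 each). Averaged over diets, knockout minus wild type was -0.30 (two-sided exact permutation p = 0.025, adjusted 0.135 over 6 tests of ratios), which did not pass. On Western diet the knockout ratios, 0.10 to 0.27, lay below the wild-type ratios, 0.52 to 0.87. The control-diet ranges of this ratio overlapped (knockout 0.30 to 0.41, wild type 0.26 to 0.66). Groups without overlap were frequent on Western diet, where 14.5% of single rows were higher in knockouts with no overlap. How often the ratios of other row pairs separate the genotypes was not tested, so the Western-diet ranges are a description only. The ratio of Acadl to Acaa2 gave 0.19 for genotype (exact p = 0.045, adjusted 0.135), and that of Acadl to Acat1 gave -0.12 (exact p = 0.16, adjusted 0.32). Diet, averaged over genotypes, moved the 3 ratios by -0.047, 0.0022 and 0.050 (exact p = 0.555 to 0.97). The smallest p that 400 arrangements allow is 0.005.

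**Figure D4:**
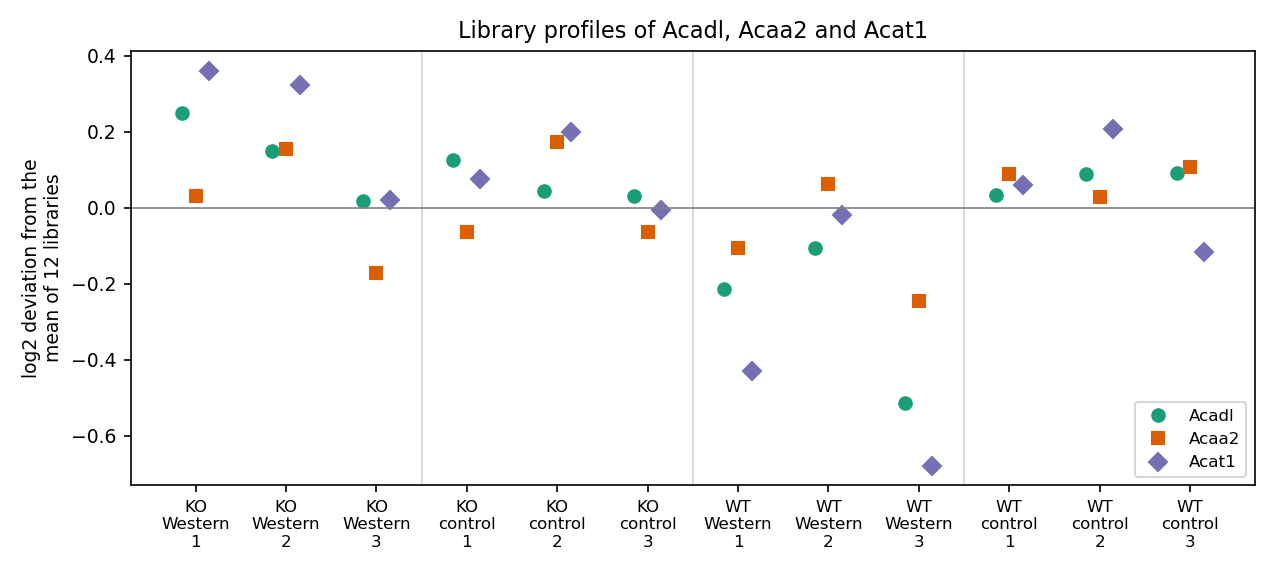
Log2 deviation of Acadl, Acaa2 and Acat1 from their own mean over 12 libraries (vertical axis), by library, with numbers below the axis giving the replicate. In Western-diet wild-type replicate 3 the deviations were -0.51, -0.24 and -0.68, the lowest of each gene, and all 3 Western-diet wild-type libraries were below the mean for Acadl and Acat1.

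Among the 80 other rows from A2m to Cat that were above 21 in every library, rows with a pattern most like that of Acadl by Pearson r over 12 libraries included Acat1 (0.92) and Atox1, a copper chaperone (0.87). For Acat1 they included Acadl (0.92) and Aldh2, the mitochondrial aldehyde dehydrogenase (0.92). For Acaa2 they included Apoa2, an apolipoprotein of high-density lipoprotein (0.94), and Aldh2 (0.85). Acat1 ranked 10th and Acadl 13th of 80 for Acaa2. The most opposed rows were Bad, which promotes apoptosis, for Acadl (-0.86) and for Acat1 (-0.86), together with Apom, an apolipoprotein that carries sphingosine-1-phosphate, for Acadl (-0.81) and Adh4, an alcohol dehydrogenase, for Acat1 (-0.83). For Acaa2 they were Atp6v1f, a subunit of the vacuolar proton pump (-0.88), and Cad, the enzyme that starts pyrimidine synthesis (-0.87). For deviations from group means r with Acadl was only -0.38 for Apom, -0.58 for Bad and 0.70 for Atox1. With Acat1 it was -0.70 for Bad, -0.65 for Adh4 and 0.90 for Aldh2. With Acaa2 it was 0.97 for Apoa2, 0.87 for Aldh2, -0.92 for Atp6v1f and -0.85 for Cad. These rows were picked as extremes among 80, so their r values are descriptions and were not tested.

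Lists of mitochondrial and peroxisomal beta-oxidation, ketone body and lipid synthesis genes described here held 13 rows besides the members, 4 from A2m to Cat and 9 after it. None of the 13 passed limma's test in any of the 5 comparisons (lowest adjusted p = 0.159, on Western diet by genotype). At an unadjusted p under 0.05, 0 of the 13 stood out for diet in wild-type mice. On Western diet by genotype 2 of the 4 and 3 of the 9 did, as did 20.9% of all rows (154 rows), and those from A2m to Cat were Acaca and Acat2. Acaca, acetyl-CoA carboxylase of fatty acid synthesis, was 1222 to 1897 in Western-diet knockout and 797 to 976 in Western-diet wild-type mice (0.70 ± 0.27). Acat2, the cytosolic counterpart of Acat1, was 556 to 610 in Western-diet knockout and 935 to 1475 in Western-diet wild-type mice (-1.03 ± 0.44), opposite in sign to Acat1. Acacb, a carboxylase at the mitochondrial surface whose product restrains fatty acid entry, had -0.68 ± 0.41, and Cat, catalase, -0.089 ± 0.18. The median log2 fold change of these 4 was -0.38 on Western diet by genotype, against 0.030 over all rows. The rows named Cpt1a and Hadh lie after Cat and are given by name only, with log2 fold changes of -0.74 ± 0.25 and -0.43 ± 0.19 on Western diet by genotype. Rows named Echs1 and Ehhadh stood at 21 in 11 of 12 libraries.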

How the data were processed

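Per the labels' protocols, total RNA was extracted with Trizol and hybridised to barcoded probes of a metabolic panel. The deposited values are a normalized signal, 1 column per library. How they were normalized, and with which software and reference genes, is not given in the sources used here. In the range above 21 and below 3000, each library's values fell on multiples of 1 step (100% within 0.1 of a whole number), worth 0.906 to 1.50. Because values at 21 hide their counts, no count model was fitted. All 736 row names matched a RefSeq symbol (GRCm38.p6). Between replicates of a group, chi-square over 538 rows was 12.7 to 337 per degree of freedom, above counting noise.

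Log2(value + 1) was fitted with limma 3.58.1 in R 4.3.3 (lmFit, eBayes), with 4 group means over 12 libraries and 8 residual degrees of freedom, and adjusted by Benjamini-Hochberg over 736 rows at 0.05. The p-values of limma set each difference of group means against the spread between libraries of a group, pooled over the 4 groups. Correlations used 100000 resamples, or 1296 exact arrangements within groups. The 20 simulated tables of 736 rows had 200 rows changed, and noise drawn for each row independently of the others. In them the test of diet in wild type found 57.0% of changes of 0.5 (log2) and 85.4% of changes of 1. Of its calls, 3.64% were false. The test of the difference of diet effects found 40.1% and 72.3%, with 3.85% false. Rows of the real table vary together, so these rates need not hold for it. Named were the members, the 3 most and 2 least alike rows of each, and listed pathway genes from A2m to Cat. Some rows taken by this rule are left out of what is reported here. Rows named Cps1, Ttr, Cpt1a, Hadh, Echs1 and Ehhadh were named after their values were seen. The members and lists were chosen with earlier results of these data known. Alternatives were scaling, low-value filter, pseudocount, variance model, library weights, age, position, groups and rows fitted, and omission of each library. Omission of both control-diet replicates 2 and the second set of weights were added after seeing the data.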

Additional observations from a re-analysis of the deposited data

How the results depend on the processing

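For the 15 log2 fold changes of the members, diet in wild-type mice kept its sign and missed the threshold in all 3 genes under every alternative. Over omissions of single libraries it was -0.44 to -0.23 for Acadl, -0.25 to -0.096 for Acaa2 and -0.60 to -0.27 for Acat1. For diet in knockout mice these were 0.017 to 0.13, -0.086 to 0.077 and 0.082 to 0.25. For the difference of diet effects they were 0.30 to 0.51, 0.084 to 0.25 and 0.42 to 0.75. For genotype on Western diet they were 0.30 to 0.50, 0.025 to 0.19 and 0.46 to 0.79, and on control diet -0.033 to 0.014, -0.14 to -0.020 and -0.045 to 0.12.

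Rows past the threshold were 0 to 1 (diet in wild type), 0 (diet in knockout), 0 to 1 (difference), 0 to 21 (genotype on Western diet) and 0 to 3 (genotype on control diet) over the omissions. On Western diet, leaving out replicate 2 of control-diet wild-type mice gave 21, replicate 2 of Western-diet wild-type mice 15 and replicate 2 of control-diet knockout mice 4. In the same order the counts were 1, 26, 19, 326 and 195 with limma's library weights and 2, 62, 21, 344 and 222 with weights from rows above 21. The count for genotype on Western diet was 0 with median centring, scaling to totals, the low-value filter, age, position, or only the 2 groups fitted, and 8 with rows A2m to Cat. Age gave 2 for diet in knockout. Without both control-diet replicates 2 genotype counts were 37 on Western and 26 on control diet.

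With limma's weights, the difference of diet effects was 0.47 (Acadl) and 0.76 (Acat1), genotype on Western diet 0.47 and 0.75, Acaa2 for diet in knockout 0.074 and Acat1 for genotype on control diet -0.014. With the second weights these were 0.46 and 0.77, 0.47 and 0.75, 0.077 and -0.015, and Acadl on control diet was 0.0044. Signs turned with age for Acadl (-0.069) and Acat1 (-0.12) in diet in knockout, Acaa2 in the difference (-0.026), and Acadl (0.13) and Acaa2 (0.14) in genotype on control diet. Age also gave 0.29 for Acat1 in genotype on control diet. They turned with position for Acaa2 in diet in knockout (0.017) and Acadl on control diet (0.066), with median centring for Acaa2 in diet in knockout (0.00066) and on Western diet (-0.063) and Acat1 on control diet (-0.13), and without both control-diet replicates 2 for Acaa2 in diet in knockout (0.067) and Acadl on control diet (0.016). Acadl on Western diet passed with rows A2m to Cat (0.42). On control diet, knockout library medians were 0.17 (log2) above those of wild type. The cause of these changes was not tested.

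The r of Acadl with Acat1 was 0.84 to 0.96 over omissions and passed in each. That of Acadl with Acaa2 was 0.33 to 0.71 and that of Acaa2 with Acat1 0.47 to 0.77, both failing without Western-diet wild-type replicate 3, and with scaling to totals (0.52 and 0.56). For deviations from group means the ranges were 0.44 to 0.76 (Acadl and Acaa2), 0.66 to 0.88 (Acadl and Acat1) and 0.63 to 0.85 (Acaa2 and Acat1), and with median centring, which adds each library's shift to all genes, 0.90, 0.93 and 0.87 passed. Ratios for diet were -0.092 to -0.012 (Acadl over Acaa2), -0.032 to 0.049 (Acadl over Acat1) and -0.0013 to 0.10 (Acaa2 over Acat1), and for genotype 0.15 to 0.23, -0.16 to -0.071 and -0.36 to -0.25. The last passed without control-diet wild-type replicate 2 (-0.36, adjusted exact p = 0.03). Replicate numbers here follow the order in which the mice of a group are listed, because the labels give none. Each library was a different mouse and no pairing is labelled, so no paired analysis was made. Precision is limited by 3 mice per group. The largest counting error of a member's value (2.56%) was well under the spread of Western-diet groups. Acadl in control-diet wild-type mice had a coefficient of variation of only 2.30%, so counting may be a larger share of the spread there. That share was not tested.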
